A study of Arabidopsis thaliana with 31 samples.

Results

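This comparison sets seedlings of the gcn5-7 arp6-1 double mutant against seedlings of the arp6-1 single mutant, and so asks what the GCN5 mutation changes where ARP6 is lost. The 6 libraries, 3 per genotype, were taken by the genotype in their labels from a series of 31 RNA-seq libraries of Arabidopsis thaliana. They belong to experiment A, which also holds gcn5-7 (3 libraries) and Col-0, the wild type (2 libraries). Experiment B, deposited as a separate table, gives a further 5 libraries each of gcn5-7 and Col-0. gcn5-7 arp6-1 and arp6-1 seedlings both carry arp6-1, and the double mutant alone of the pair carries gcn5-7. All were whole seedlings collected 12 days after germination from soil under long days at about 21 °C, from seed kept cold beforehand. The labels give no more about the alleles, name no batch, and do not say that replicates were grown apart, so a p-value here sets a difference against the spread among these libraries alone, and that spread may be technical.

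GCN5 is the catalytic histone acetyltransferase of the plant SAGA complex, and acetylation of histone H3 by it accompanies active promoters. ARP6 belongs to the SWR1 complex, which exchanges the histone H2A of nucleosomes for the variant H2A.Z. H2A.Z sits at the first nucleosomes of many genes and within the bodies of genes that respond to the environment, and plants without ARP6 flower early because the floral repressor FLC is not kept active.

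ARP6 (AT3G33520, chr3:14093656-14095588, minus strand; coordinates are of TAIR10.1) was listed at 0.477, 0.775 and 0.291 in gcn5-7 arp6-1 libraries, against 0.363, 0.17 and 0.109 in arp6-1 libraries, and averaged 21.1 in gcn5-7 and 27.2 in Col-0. The values are TPM that the authors rescaled between libraries by TMM, so they are relative to gene length and to the library's total. A value in text below is on this scale unless it is called a log2 fold change. All 6 libraries lay far below gcn5-7 and Col-0, as the arp6-1 label says. GCN5 (AT3G54610, chr3:20213406-20217653, plus strand) was 6.71, 6.65 and 6.89 in gcn5-7 arp6-1 libraries, against 4.72, 5.22 and 5.27 in arp6-1 libraries, with 8.39 in gcn5-7 and 6.74 in Col-0, and did not pass the test (log2 fold change 0.35 ± 0.34, adjusted p = 0.419 by limma, where ± is the standard error). GCN5 RNA was therefore present in every library and does not check the gcn5-7 label.

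The libraries differed in how their values followed gene length, and this moved with the comparison. The rank correlation between a gene's exon length and its deviation from its own mean over experiment A was 0.642, 0.647 and 0.661 in gcn5-7 arp6-1, against -0.599, -0.433 and -0.105 in arp6-1. It ran from -0.572 to 0.366 in gcn5-7 and was -0.626 and 0.559 in Col-0. Column sums were 715740 to 753300 in gcn5-7 arp6-1 and 945780 to 2078200 in arp6-1, the highest being arp6-1 replicate 1, which also stood farthest apart on the first principal component (68.2% of the variance). The depth recovered from the steps of the low values was 38300000 to 39600000 reads in the 11 libraries, where 98.8 to 99.5% of values under 20 reads came out whole to within 0.05. Lists of cell type markers were summed as well. The summed trichome markers were 12.3 to 22.2 in gcn5-7 arp6-1 and 38.2 to 121 in arp6-1, and the guard cell markers 17.3 to 24.2 in gcn5-7 arp6-1 and 30.3 to 64.5 in arp6-1. The vascular markers were 129 to 188 in gcn5-7 arp6-1 and 67.4 to 100.1 in arp6-1, and the root markers 54.6 to 124 in gcn5-7 arp6-1 and 21.9 to 56.7 in arp6-1. Of 3 trichome, 5 guard cell, 6 vascular and 3 root markers tested, only TRY of the trichome list passed the test on the deposited values. After the gene-length correction described next TRY did not pass (-1.46, adjusted p = 0.0506), and SPCH of the guard cell list (-1.19, adjusted p = 0.0406) and IRX5 of the vascular list (-1.13, adjusted p = 0.0352) were lower. Of the root list, PYK10 alone averaged 67.2 in gcn5-7 arp6-1 and 19.4 in arp6-1. Of the trichome list, TRY alone averaged 7.64 in gcn5-7 arp6-1 and 56.0 in arp6-1, so the arp6-1 sums were mostly this gene. Corrected median log2 fold changes were -0.65 for root (1 of 3 positive) and -0.39 for vascular markers (3 of 6), opposite in sign to the differences in their sums. They were -0.019 for trichome (1 of 3) and -0.42 for guard cell markers (0 of 5). Seed and embryo markers summed to at most 0.637 in gcn5-7 arp6-1 and at most 2.31 in arp6-1, and no member reached the mean needed for testing. What part these differences have in the results below was not tested, and in whole seedlings fewer cells of a type cannot be told apart from less RNA per cell.

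Many more genes were higher than lower in the double mutant, and most of the higher ones were long. Among the 18322 genes tested, whose mean over experiment A was 1 or more, 2715 (14.8%) differed between gcn5-7 arp6-1 and arp6-1 at an adjusted p below 0.05. These were 2173 higher (11.9%) and 542 lower (2.96%). The split depended on scaling, at 2734 higher and 1928 lower after quantile normalization of the libraries. In 63.1% of all genes tested the 3 gcn5-7 arp6-1 libraries did not overlap with the 3 arp6-1 libraries. The 10 highest and 10 lowest called genes named below were picked among genes without overlap, so that separation is no further finding. Fold changes are of log2(value + 1), which understates those of low genes. Genes low in all other genotypes, such as RD29B, HAI2, HFR1, AGL19 and NDB4 below, reached the mean needed for testing only through the double mutant. With the genes in 4 groups by exon length, the median log2 fold change was -1.08 for genes of up to 1203 bases, -0.19 for 1204 to 1723 bases, 0.43 for 1724 to 2333 bases and 1.32 for longer genes, and 1633 of the genes called higher were in the longest group. The correlation of the fold change with exon length over genes was 0.69 (Spearman; genes are not independent replicates). A second fit therefore removed from each library a smooth curve on exon length before testing, which brought that correlation to 0.002. It called 1364 genes (7.44%), 915 higher (4.99%) and 449 lower (2.45%).

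Genes called in the same direction by both fits numbered 752 higher (4.1%) and 181 lower (0.988%), while 10 called higher as deposited were called lower after correction. Below, "corrected" marks a value of the second fit, and genes called by 1 fit alone are named as such. The correction also takes out any change that itself goes with gene length. The number of calls depended on each library. Without gcn5-7 arp6-1 replicate 1, 2 or 3 it was 997, 418 or 524, and without arp6-1 replicate 1 or 2 it was 599 or 564, whereas without arp6-1 replicate 3 it was 2545.

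**Figure D1:**
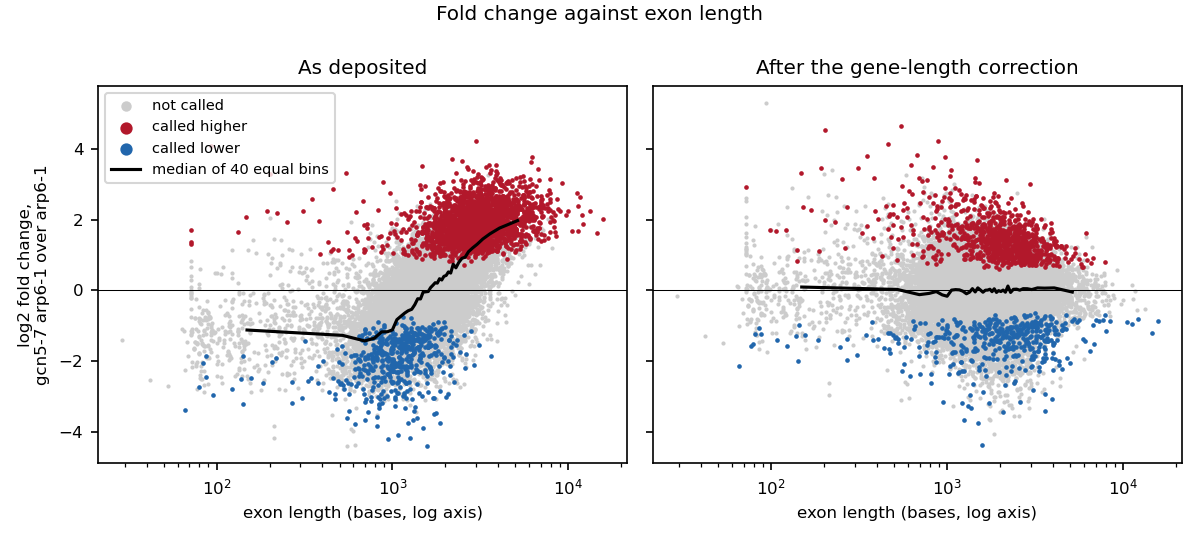
Log2 fold change of gcn5-7 arp6-1 over arp6-1 (vertical axis) against exon length in bases (horizontal log axis) for the genes tested, as deposited (left) and after the gene-length correction (right). Points are genes, red called higher and blue called lower at an adjusted p below 0.05, and the black line is the median of genes in bins of equal size. The median rises with length on the left, from below -1 for short genes to above 1 for the longest, and lies near 0 on the right.

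Genes of the abscisic acid and drought response stood among the genes with the highest fold changes in the double mutant. Abscisic acid is the hormone that plants make under drought and salt, and its transcription factors act through short promoter motifs. RD29B (AT5G52300, chr5:21237021-21239531, plus strand), a desiccation-induced protein used as a marker of abscisic acid, was 9.58, 33.8 and 20.2 in gcn5-7 arp6-1 libraries, against 0.421, 0.475 and 0.636 in arp6-1 libraries. All 3 double mutant libraries lay far above all 3 arp6-1 libraries (log2 fold change 3.72 ± 0.37, adjusted p = 0.00126; corrected 3.13, adjusted p = 0.00635). Its neighbour RD29A (AT5G52310, chr5:21240717-21243644, plus strand), which answers to cold and drought as well, was 11.1, 59.1 and 76.9 in gcn5-7 arp6-1 libraries, against 2.22, 3.15 and 2.01 in arp6-1 libraries. Double mutant replicate 1 was the lowest of its group for both genes (RD29A 3.49 ± 0.68, adjusted p = 0.0118; corrected 2.47, adjusted p = 0.036). The 250 bases before the annotated starts of this gene pair and of 2 further genes described next, P5CS1 and HB-7, are shown 5′ to 3′ from the RefSeq genome, since the motifs that drought and abscisic acid factors bind were described in the RD29 promoters. Capitals mark ACGTG, the core of the abscisic acid response element, and CCGAC, the core of the dehydration response element, on either strand.
RD29B (chr5:21236771-21237020, plus strand): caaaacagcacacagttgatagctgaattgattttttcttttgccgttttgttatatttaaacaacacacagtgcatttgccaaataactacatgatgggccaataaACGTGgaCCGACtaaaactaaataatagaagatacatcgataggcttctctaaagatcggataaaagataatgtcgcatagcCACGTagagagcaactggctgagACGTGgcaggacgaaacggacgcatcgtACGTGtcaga
RD29A (chr5:21240467-21240716, plus strand): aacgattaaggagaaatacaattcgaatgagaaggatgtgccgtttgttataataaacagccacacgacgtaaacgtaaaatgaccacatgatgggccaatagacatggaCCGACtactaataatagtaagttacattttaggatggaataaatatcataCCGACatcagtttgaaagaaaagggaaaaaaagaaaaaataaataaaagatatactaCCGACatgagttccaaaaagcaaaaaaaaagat
P5CS1 (chr2:16603320-16603569, minus strand): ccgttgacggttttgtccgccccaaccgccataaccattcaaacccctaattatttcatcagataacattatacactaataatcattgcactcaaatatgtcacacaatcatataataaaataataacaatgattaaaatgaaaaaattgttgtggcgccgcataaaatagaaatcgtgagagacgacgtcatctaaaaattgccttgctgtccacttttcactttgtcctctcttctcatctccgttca
HB-7 (chr2:19166968-19167217, minus strand): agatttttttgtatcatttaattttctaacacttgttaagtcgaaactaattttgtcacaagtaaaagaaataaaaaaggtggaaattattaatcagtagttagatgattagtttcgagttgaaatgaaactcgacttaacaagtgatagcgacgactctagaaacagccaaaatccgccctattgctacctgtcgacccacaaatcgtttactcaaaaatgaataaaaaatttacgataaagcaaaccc
The window of RD29B held 4 ACGTG and 1 CCGAC, and that of RD29A held 0 ACGTG and 3 CCGAC. Neither motif was in the windows of P5CS1 and HB-7. Sites outside the windows, including those past the annotated starts, were not searched. The absence of a motif, as of ACGTG in the RD29A window, therefore says nothing of such sites. Over all genes tested, 23.2% of 18199 such windows held ACGTG and 13% held CCGAC. Of the windows of genes called higher by both fits, 28.3% held ACGTG and 16% held CCGAC, and of those called lower by both 24.7% and 11.5% did. These shares are descriptions with no test.

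P5CS1 (AT2G39800, chr2:16598072-16603319, minus strand), the enzyme that commits glutamate to proline, which plants store under water deficit, was 56.4, 364 and 345 in gcn5-7 arp6-1 libraries, against 5.73, 14.3 and 9.28 in arp6-1 libraries. It had the highest fold change of the genes named by rule, and double mutant replicate 1 again stood lowest in its group (4.25 ± 0.78, adjusted p = 0.00885; corrected 3.01, adjusted p = 0.0241). Its paralogue P5CS2 averaged 87.6 ± 22.9 in gcn5-7 arp6-1 and 13.9 ± 5.63 in arp6-1 seedlings (mean ± SD, n = 3 each, as for means below; 2.60 ± 0.58, adjusted p = 0.0192; corrected 1.5, adjusted p = 0.0285). HB-7 (AT2G46680, chr2:19165274-19166967, minus strand), a homeodomain factor induced by abscisic acid, was 32.1, 96.3 and 92.6 in gcn5-7 arp6-1 libraries, against 2.48, 8.29 and 4.95 in arp6-1 libraries (3.54 ± 0.65, adjusted p = 0.00943; corrected 3.69, adjusted p = 0.0148). HAI2 (AT1G07430), a protein phosphatase that is itself induced by abscisic acid and damps its signalling, averaged 6.58 ± 3.78 in gcn5-7 arp6-1 and 0.272 ± 0.0988 in arp6-1 seedlings (2.43 ± 0.35, adjusted p = 0.00435; corrected 2.08, adjusted p = 0.0171). ABF3 (AT4G34000), a bZIP factor that binds the abscisic acid response element, averaged 64.4 ± 32.8 in gcn5-7 arp6-1 and 6.13 ± 2.86 in arp6-1 seedlings (3.13 ± 0.61, adjusted p = 0.0117; corrected 2.3, adjusted p = 0.0178). MYB96, which links abscisic acid to wax synthesis, averaged 34.9 ± 18.7 in gcn5-7 arp6-1 and 5.73 ± 0.62 in arp6-1 seedlings (2.23 ± 0.56, adjusted p = 0.0291; corrected 2.00, adjusted p = 0.0429).

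Of 26 cold and abscisic acid genes tested, 6 were called higher and 0 lower, against 11.9% and 2.96% of all genes, and 5 of the 6 also passed after correction, when RD20 passed as well. The list's median log2 fold change was 0.97 as deposited and 0.45 corrected, beside 0.12 and -0.004 over all genes. In gcn5-7 against Col-0 its median was -0.13 in experiment A and -0.17 in experiment B. RD29B was 0.0513 in gcn5-7 and 0.043 in Col-0, P5CS1 9.88 in gcn5-7 and 10.3 in Col-0, and HB-7 4.14 in gcn5-7 and 4.67 in Col-0, so the double mutant was the highest of the 4 genotypes for these genes. Without arp6-1 replicate 1, RD29B (3.67, adjusted p = 0.00875), HAI2 (2.40, adjusted p = 0.0248), P5CS1 (3.95, adjusted p = 0.0461) and HB-7 (3.17, adjusted p = 0.0467) still passed. RD29A (3.44, adjusted p = 0.0509), ABF3 (2.74, adjusted p = 0.0541), P5CS2 (2.37, adjusted p = 0.0810) and MYB96 (2.22, adjusted p = 0.0953) did not. P5CS1 and P5CS2 overlap a gene on the opposite strand by 91 and 32 bases, and whether reads were counted by strand is not stated in the sources used here.

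Several light signalling and clock genes were higher as well, while flowering genes were called in both directions. HFR1 (AT1G02340, chr1:465616-467880, minus strand), a helix-loop-helix protein that restrains the response to shade, was 15.4, 13.6 and 11.98 in gcn5-7 arp6-1 libraries, against 0.962, 0.774 and 0.907 in arp6-1 libraries. The groups lay far apart (2.96 ± 0.26, adjusted p = 0.00126; corrected 3.04, adjusted p = 0.00122). RD29B, EXO and GMI1, among other genes, had the same adjusted p as deposited. HFR1 averaged 0.616 in gcn5-7 and 0.744 in Col-0. PIF7, a phytochrome-interacting factor that promotes growth in shade, averaged 19.2 ± 7.48 in gcn5-7 arp6-1 and 2.67 ± 1.3 in arp6-1 seedlings (2.46 ± 0.54, adjusted p = 0.0175; corrected 2.07, adjusted p = 0.0189). CRY2, a blue light receptor, averaged 45.9 ± 3.56 in gcn5-7 arp6-1 and 6.63 ± 2.06 in arp6-1 seedlings (2.65 ± 0.65, adjusted p = 0.0262; corrected 1.59, adjusted p = 0.0408). PIF3 passed as deposited only (1.81 ± 0.31, adjusted p = 0.00668; corrected 0.72, adjusted p = 0.181). Of 22 genes of light and shade signalling tested, 6 were called higher and 1 lower as deposited, against 11.9% and 2.96% of all genes, and 3 higher after correction, against 4.99%. Without arp6-1 replicate 1, 2 were called higher, and PIF7 and CRY2 did not pass (adjusted p = 0.0771 and 0.103). Their median was 0.32 as deposited and 0.25 corrected. PIF7 overlaps a gene on the opposite strand by 318 bases.

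In the circadian clock list, 4 of 15 genes were called higher as deposited, against 11.9% of all genes, and 2 after correction, against 4.99%, when 1 was called lower, and the median went with gene length, at 1.3 as deposited and 0.25 corrected. PRR7, a repressor of the morning loop, averaged 16.8 ± 9.51 in gcn5-7 arp6-1 and 0.799 ± 0.308 in arp6-1 seedlings (3.14 ± 0.65, adjusted p = 0.0139; corrected 1.75, adjusted p = 0.0394), and LNK1, a coactivator of the morning, averaged 88.3 ± 29.9 in gcn5-7 arp6-1 and 14.3 ± 4.2 in arp6-1 seedlings (2.53 ± 0.55, adjusted p = 0.017; corrected 1.51, adjusted p = 0.0276). CCA1, the morning factor, was 156, 141 and 113 in gcn5-7 arp6-1 libraries, against 17.7, 21.7 and 38.2 in arp6-1 libraries, without overlap, but passed as deposited only (2.42 ± 0.71, adjusted p = 0.0459; corrected 1.36, adjusted p = 0.0868). LUX, of the evening complex, was the gene called lower after correction (-3.09, adjusted p = 0.0394). The labels give no hour of harvest, so a difference in it between the genotypes was not tested. None of PRR7, LNK1 and CCA1 passed without arp6-1 replicate 1 (adjusted p = 0.0636, 0.0738 and 0.154).

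Of the flowering promoters, 11 genes were tested, of which 2 were called higher and 2 lower, against 11.9% and 2.96% of all genes. Of the 11, 4 had a positive sign, and the list's median log2 fold change was -0.89 as deposited and -0.011 corrected. The 2 called lower were AGL24 and AGL42, the latter as deposited only (-1.33, adjusted p = 0.0297, against -1.35, adjusted p = 0.0601 corrected). AGL19 (AT4G22950, chr4:12023824-12028004, minus strand), a MADS-box activator of flowering that acts beside the FLC pathway, was 4.11, 4.14 and 2.74 in gcn5-7 arp6-1 libraries, against 0, 0.21 and 0.187 in arp6-1 libraries. It was nearly silent in arp6-1 and at 0.687 in gcn5-7 and 0.588 in Col-0 (2.03 ± 0.25, adjusted p = 0.00225; corrected 2.57, adjusted p = 0.00153). AGL19 was thus tested only because the double mutant was high. CDF1, which represses the florigen gene FT and was listed among these genes for that link, was 62.3, 69.4 and 52.9 in gcn5-7 arp6-1 libraries, against 10.05, 13.5 and 19.1 in arp6-1 libraries (2.07 ± 0.41, adjusted p = 0.0122; corrected 2.3, adjusted p = 0.0155). CDF1 did not pass without arp6-1 replicate 1 (adjusted p = 0.0517). AGL24 (AT4G24540, chr4:12670897-12674106, minus strand), a MADS-box partner of SOC1 in the shoot apex, moved the other way, at 3.27, 3.26 and 9.59 in gcn5-7 arp6-1 libraries, against 56.5, 58.5 and 27.9 in arp6-1 libraries. The 3 double mutant libraries were all below the 3 arp6-1 libraries (-3.00 ± 0.55, adjusted p = 0.00861; corrected -2.32, adjusted p = 0.0179). Of the FLC clade, the repressors whose activity depends on SWR1, no gene of the 5 tested passed as deposited. FLC was too low in all 11 libraries to be tested, at no more than 0.0990 in gcn5-7 arp6-1 and no more than 0.167 in arp6-1. FLM was 7.51, 8.44 and 9.001 in gcn5-7 arp6-1 libraries, against 9.62, 13.2 and 11.2 in arp6-1 libraries and passed only after correction, lower (-2.22, adjusted p = 0.0399, against -0.40, adjusted p = 0.339 as deposited). Exon length here joins all annotated exons of a gene, and for FLM (chr1:28955483-28960234) it was 4480 bases, nearly the whole gene. The correction thus treated FLM as a long gene, and how far its call depends on that length was not tested. AP1, the meristem identity factor, and TFL1, which delays flowering, were called lower as deposited (-1.09, adjusted p = 0.0495 and -1.47, adjusted p = 0.0101) but not after correction (-1.27, adjusted p = 0.0748 and -0.32, adjusted p = 0.461).

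Most calls of higher genes in the chromatin and DNA repair lists were absent after the correction. As deposited the share called higher was 11.9% over all genes, but 1633 of the 4547 genes in the longest group, and the median exon length of the acetyltransferase and SAGA list was 2406 bases. Of 15 genes of the H2A.Z, SWR1 and INO80 list, 5 were called higher and 1, the H2A.Z gene HTA11, lower as deposited; SWC2 and INO80 were called higher in both fits, and YAF9B and SEF in the corrected fit alone. SWC2, a SWR1 subunit, was 6.52, 9.91 and 8.72 in gcn5-7 arp6-1 libraries, against 2.12, 1.42 and 1.18 in arp6-1 libraries, without overlap (1.87 ± 0.31, adjusted p = 0.00597; corrected 1.53, adjusted p = 0.021). INO80, the motor protein of the INO80 remodelling complex, averaged 16.1 ± 1.43 in gcn5-7 arp6-1 and 1.09 ± 0.492 in arp6-1 seedlings (3.06 ± 0.55, adjusted p = 0.00784; corrected 1.07, adjusted p = 0.0227). PIE1, the motor protein of SWR1, was 5.16, 6.96 and 6.88 in gcn5-7 arp6-1 libraries, against 0.175, 0.28 and 0.439 in arp6-1 libraries, with a log2 fold change of 2.49 ± 0.28, adjusted p = 0.00147 as deposited and 0.25, adjusted p = 0.459 corrected. MBD9, which recruits SWR1, had 2.1, adjusted p = 0.00672 as deposited and -0.15 ± 0.16, adjusted p = 0.513 corrected, a value not told apart from 0. Of 16 histone acetyltransferase and SAGA genes, 7 were called higher as deposited and 2 after correction, against 4.99% of all genes. These 2 were ADA2A, the adaptor that partners GCN5, at 5.96, 10.8 and 8.72 in gcn5-7 arp6-1 libraries, against 1.46, 0.988 and 1.26 in arp6-1 libraries (2.06 ± 0.36, adjusted p = 0.00714; corrected 1.54, adjusted p = 0.0195), and HAC1, a p300-like acetyltransferase, at 12.8 ± 2.61 in gcn5-7 arp6-1 and 0.699 ± 0.153 in arp6-1 seedlings (corrected 0.87, adjusted p = 0.0226). HAC5, its paralogue, had 1.96, adjusted p = 0.00737 as deposited and -0.11, adjusted p = 0.681 corrected. CHR11, an ISWI remodeller, averaged 31.5 ± 4.4 in gcn5-7 arp6-1 and 2.29 ± 1.46 in arp6-1 seedlings (3.40 ± 0.72, adjusted p = 0.0148; corrected 1.85, adjusted p = 0.0226). CHR11 did not pass without arp6-1 replicate 1 (adjusted p = 0.0707). None of 15 histone deacetylase genes passed in either fit. PIE1 overlaps MYB10 by 340 bases and INO80 overlaps EIF3E by 170 bases, each on the opposite strand.

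In the DNA damage list, 5 of 10 genes were called higher as deposited, against 11.9% of all genes, and 2 after correction, against 4.99%. PARP2, a poly(ADP-ribose) polymerase that responds to DNA breaks, was 6.43, 7.82 and 5.89 in gcn5-7 arp6-1 libraries, against 0.621, 0.447 and 0.733 in arp6-1 libraries. The groups did not overlap, and the call held in both fits (2.27 ± 0.25, adjusted p = 0.00143; corrected 1.34, adjusted p = 0.0215) and without arp6-1 replicate 1 (2.28, adjusted p = 0.00932). RAD17, of the checkpoint clamp loader, was the other (0.94 corrected, adjusted p = 0.0203). GMI1 and PARP1 passed as deposited only (2.54, adjusted p = 0.00126 and 1.94, adjusted p = 0.00597; corrected 0.58, adjusted p = 0.181 and 0.47, adjusted p = 0.195). Of 32 cell cycle and replication genes, 5 were called higher as deposited, near the 11.9% of all genes, and 1 without arp6-1 replicate 1. Among the 5 were HINKEL (1.89, adjusted p = 0.00712), MCM6 (1.71, adjusted p = 0.014) and MCM3 (1.99, adjusted p = 0.0232). MCM3, a subunit of the replicative helicase, alone of them passed after correction (0.72, adjusted p = 0.0496), when AUR2 and TSO2 were called lower.

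Other genes with high fold changes had unrelated functions. SS4, which starts starch granules, was 48.8, 57.96 and 39.1 in gcn5-7 arp6-1 libraries, against 2.84, 2.33 and 5.5 in arp6-1 libraries (3.49 ± 0.55, adjusted p = 0.0056; corrected 2.03, adjusted p = 0.00869). NET1D, an actin-binding protein, was 8.38, 25.7 and 28.02 in gcn5-7 arp6-1 libraries, against 0.376, 0.418 and 0.448 in arp6-1 libraries (3.78 ± 0.43, adjusted p = 0.00159; corrected 1.64, adjusted p = 0.0333). MFP1, a filament-like protein of thylakoids, averaged 62.3 ± 10.5 in gcn5-7 arp6-1 and 5.49 ± 3.53 in arp6-1 seedlings (3.45 ± 0.71, adjusted p = 0.0136; corrected 2.40, adjusted p = 0.0155), and it overlaps neighbours on the opposite strand at both ends. PPI1, an interactor of the plasma membrane proton pump, and G2484-1 passed as deposited only (corrected 2.77, adjusted p = 0.0616 and 1.23, adjusted p = 0.0517), and nearly the whole of PPI1 is overlapped by a long non-coding RNA on the other strand. NDB4, an external NADH dehydrogenase of mitochondria, was 6.8, 6.26 and 4.59 in gcn5-7 arp6-1 libraries, against 0.117, 0.621 and 0.697 in arp6-1 libraries and was near 0 in gcn5-7 (0.09) and Col-0 (0.0355; fold change 2.23 ± 0.24, adjusted p = 0.00143; corrected 1.72, adjusted p = 0.00728). ANAC013, a factor that carries mitochondrial stress signals to the nucleus, averaged 40.1 ± 9.97 in gcn5-7 arp6-1 and 8.93 ± 5.33 in arp6-1 seedlings (2.23 ± 0.56, adjusted p = 0.0284; corrected 1.83, adjusted p = 0.0253). SEN1, a marker of dark and ageing, averaged 20.1 ± 1.15 in gcn5-7 arp6-1 and 4.91 ± 1.61 in arp6-1 seedlings (1.87 ± 0.54, adjusted p = 0.0433; corrected 2.29, adjusted p = 0.0438), while the senescence factor NAC016 passed as deposited only (1.35, adjusted p = 0.0247; corrected 0.64, adjusted p = 0.114). Without arp6-1 replicate 1, SS4, NET1D and NDB4 still passed (adjusted p = 0.0282, 0.0121 and 0.00875). MFP1, ANAC013 and SEN1 did not (adjusted p = 0.0644, 0.0969 and 0.141).

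Cell wall and growth genes were among those with the lowest fold changes in the double mutant. EXO (AT4G08950, chr4:5740219-5741591, plus strand), an apoplastic protein induced by brassinosteroids that promotes leaf growth, was 6.14, 5.87 and 6.47 in gcn5-7 arp6-1 libraries, against 98.95, 82.5 and 80.1 in arp6-1 libraries. The 2 groups lay far apart with little spread in either, and EXO averaged 129.8 in gcn5-7 and 73.7 in Col-0 (-3.62 ± 0.37, adjusted p = 0.00126; corrected -3.31, adjusted p = 0.00153). Its relative PHI-1 was 0.668, 0.222 and 0.889 in gcn5-7 arp6-1 libraries, against 83.1, 12.8 and 18.4 in arp6-1 libraries, where arp6-1 replicate 1 was far above its own group (-4.17 ± 0.92, adjusted p = 0.0177; corrected -3.67, adjusted p = 0.035; without that library -3.38, adjusted p = 0.0773). EXL5, of the same family, was 7.47, 3.35 and 3.79 in gcn5-7 arp6-1 libraries, against 157, 40.6 and 36.4 in arp6-1 libraries and passed as deposited only (corrected -3.67, adjusted p = 0.0541). XTH enzymes cut and rejoin xyloglucan, the tether between cellulose fibrils. XTH22 (AT5G57560, chr5:23307006-23308680, minus strand), induced by touch and brassinosteroids, was 4.79, 3.05 and 4.41 in gcn5-7 arp6-1 libraries, against 21.6, 34.9 and 59.5 in arp6-1 libraries, without overlap (-2.87 ± 0.46, adjusted p = 0.00597; corrected -2.87, adjusted p = 0.00788). XTH9 was 67.3, 31.2 and 41.8 in gcn5-7 arp6-1 libraries, against 149, 327 and 248 in arp6-1 libraries, and XTH16 was 18.9, 13.9 and 14.3 in gcn5-7 arp6-1 libraries, against 81.3, 84.4 and 83.2 in arp6-1 libraries, both without overlap. Their fold changes were -2.34 ± 0.41, adjusted p = 0.00703 (corrected -2.26, adjusted p = 0.00826) and -2.34 ± 0.42, adjusted p = 0.00756 (corrected -1.78, adjusted p = 0.0104). Of 21 XTH genes tested, 0 were called higher and 5 lower, against 2.96% of all genes, 3 of the 5 also after correction and, in that fit, 3 without arp6-1 replicate 1. The list's median was -0.90 as deposited and -0.65 corrected.

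**Figure D2:**
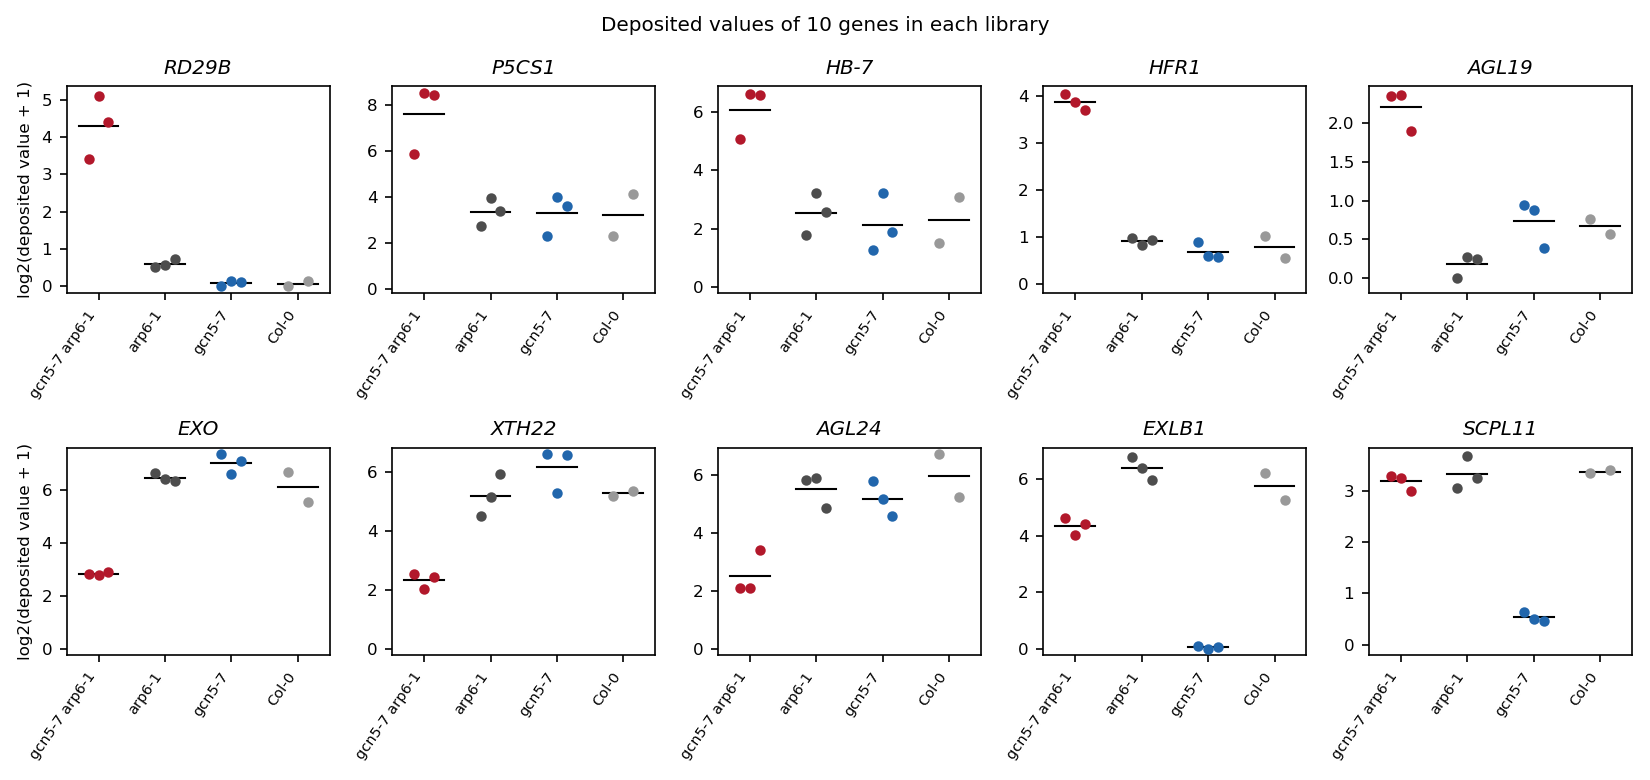
Deposited values of 10 genes, as log2(value + 1), in each library of gcn5-7 arp6-1, arp6-1, gcn5-7 and Col-0; points are libraries and bars are group means, on a separate vertical axis per gene. RD29B, P5CS1, HB-7, HFR1 and AGL19 are higher in every gcn5-7 arp6-1 library than in any other; EXO, XTH22 and AGL24 are lower; EXLB1 lies between arp6-1 and gcn5-7; and SCPL11 is low in gcn5-7 only.

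Expansins loosen the wall without cutting it. Of 17 expansin genes tested, 3 were called lower as deposited, against 2.96% of all genes. After correction 1 of them, the expansin-like EXLB1, was called, against 2.45%. EXPA6 averaged 69.9 ± 12.1 in gcn5-7 arp6-1 and 223 ± 90.3 in arp6-1 seedlings (-1.60 ± 0.44, adjusted p = 0.0368; corrected -1.61, adjusted p = 0.0609) and EXLA1 averaged 2.4 ± 1.27 in gcn5-7 arp6-1 and 7.75 ± 1.19 in arp6-1 seedlings (-1.42 ± 0.39, adjusted p = 0.0376; corrected -0.58, adjusted p = 0.197). Prohibitins scaffold the inner mitochondrial membrane, and of 5 prohibitin genes 2 were lower, while PHB1, PHB2 and PHB6 were not called and had positive fold changes in both fits (0.77, 0.50 and 0.50 as deposited). PHB4 was 10.4, 9.24 and 10.8 in gcn5-7 arp6-1 libraries, against 25.99, 29.0 and 31.7 in arp6-1 libraries and PHB3 was 40.1, 36.6 and 42.4 in gcn5-7 arp6-1 libraries, against 89.1, 105 and 99.2 in arp6-1 libraries, with small spread and no overlap. The fold changes were -1.42 ± 0.29, adjusted p = 0.0132 (corrected -1.29, adjusted p = 0.0144) and -1.28 ± 0.30, adjusted p = 0.0215 (corrected -1.86, adjusted p = 0.0142). TIM8, a chaperone of the intermembrane space, averaged 30.6 ± 1.33 in gcn5-7 arp6-1 and 172 ± 117 in arp6-1 seedlings (-2.25 ± 0.65, adjusted p = 0.0431; corrected -0.93, adjusted p = 0.0474). In all, 4 of these 21 genes were called lower as deposited, against 2.96% of all genes, 3 after correction, against 2.45%, and 2 without arp6-1 replicate 1, with a median of -0.83 and 0.05.

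The remaining genes with the lowest fold changes were high in arp6-1 replicate 1 above all. FTM1, a desaturase-like gene of the floral transition, was 1.86, 0.994 and 1.24 in gcn5-7 arp6-1 libraries, against 109, 24.2 and 14.2 in arp6-1 libraries (-3.89 ± 0.68, adjusted p = 0.00747; corrected -3.77, adjusted p = 0.0213; without arp6-1 replicate 1 -3.06, adjusted p = 0.0248). SWEET10, a sugar exporter activated at flowering, was 0.55, 0.259 and 0.603 in gcn5-7 arp6-1 libraries, against 81.1, 10.1 and 6.01 in arp6-1 libraries (-3.66 ± 0.88, adjusted p = 0.0247; corrected -3.26, adjusted p = 0.0496; without that library -2.59, adjusted p = 0.0724). LSH10, of a family of nuclear developmental regulators, was 11.9, 5.75 and 7.76 in gcn5-7 arp6-1 libraries, against 241, 96.8 and 75.4 in arp6-1 libraries (-3.74 ± 0.77, adjusted p = 0.0135; corrected -3.18, adjusted p = 0.0233; without that library -3.24, adjusted p = 0.0653). CAF1a, a deadenylase induced by stress, averaged 3.62 ± 1.88 in gcn5-7 arp6-1 and 49.6 ± 35.8 in arp6-1 seedlings (-3.30 ± 0.79, adjusted p = 0.0244; corrected -2.95, adjusted p = 0.0453; without it -2.76, adjusted p = 0.104). AT7SL-1, the RNA of the signal recognition particle, was 15.2, 10.9 and 26.2 in gcn5-7 arp6-1 libraries, against 930.4, 120.4 and 135 in arp6-1 libraries (-3.84 ± 0.87, adjusted p = 0.0195; corrected -2.61, adjusted p = 0.0245; without it -2.89, adjusted p = 0.0682). The thaumatin-like TLP-3 and the trypsin inhibitor TI2 passed as deposited only (corrected -2.69, adjusted p = 0.0678 and -2.05, adjusted p = 0.0571).

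Calls in the hormone and defence lists mostly depended on the fit or on arp6-1 replicate 1, and the photosynthesis lists held none. In the salicylic acid and pipecolic acid list, 2 of 29 genes were called higher and 2 lower, against 11.9% and 2.96% of all genes, and 0 without arp6-1 replicate 1 (EDS1 adjusted p = 0.0703, NIMIN1 0.135). EDS1, the lipase-like hub of immune signalling, averaged 38.3 ± 4.36 in gcn5-7 arp6-1 and 8.21 ± 1.94 in arp6-1 seedlings (2.11 ± 0.46, adjusted p = 0.0169; corrected 1.19, adjusted p = 0.0305), and NIMIN1, a repressor of the receptor NPR1, was 5.28, 3.12 and 7.06 in gcn5-7 arp6-1 libraries, against 64.7, 30.7 and 27.4 in arp6-1 libraries, without overlap (-2.72 ± 0.72, adjusted p = 0.0347; corrected -1.38, adjusted p = 0.0472). SNC1, an immune receptor, passed as deposited only (2.57, adjusted p = 0.025; corrected 0.62, adjusted p = 0.201). The median of this list was 0.39 as deposited and 0.17 corrected, whereas in gcn5-7 against Col-0 it was 1.34 in experiment A and 1.72 in experiment B, where 17 members were called higher. Of 28 auxin response genes, 6 were called higher as deposited, against 11.9% of all genes, and 2 without arp6-1 replicate 1, among them ARF5 (2.05, adjusted p = 0.00759) and ARF19 (1.87, adjusted p = 0.00462), but 1 after correction, which was GH3.3, an enzyme that conjugates auxin, at 4.8 ± 1.45 in gcn5-7 arp6-1 and 0.763 ± 0.493 in arp6-1 seedlings (corrected 1.18, adjusted p = 0.0171). The median of the auxin list was -0.77 as deposited and -0.56 corrected, opposite to the direction of its calls, and 0.030 with libraries set to equal sums. None of 29 jasmonate genes passed as deposited. After correction 2 were called lower, against 2.45% of all genes. Of them 1 was TAT3, a tyrosine aminotransferase induced by jasmonate (-2.61, adjusted p = 0.0414, against -1.82, adjusted p = 0.0719 as deposited).

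None of 37 light harvesting and photosystem genes and none of 17 Rubisco and Calvin cycle genes passed in either fit. Their medians were -0.95 and -0.61 as deposited and -0.32 and -0.43 corrected, but 0.19 and 0.51 after quantile normalization. In experiment B, 31 and 14 of these genes were called lower in gcn5-7 than in Col-0. The summed light harvesting genes were 52923 to 80919 in gcn5-7 arp6-1 and 79884 to 313650 in arp6-1, so the groups overlapped. Of 19 heat shock genes 2 were called higher and 1 lower as deposited, against 11.9% and 2.96% of all genes, with a median of -0.004. The lower one was a small heat shock protein gene, AT5G59720 (-1.46, adjusted p = 0.0122; corrected -0.47, adjusted p = 0.364). HSP70B was higher in both fits (1.77, adjusted p = 0.00674; corrected 0.83, adjusted p = 0.0438), whereas HSP101 was called higher as deposited only (1.59, adjusted p = 0.0486; corrected 0.14, adjusted p = 0.7). FLS1, flavonol synthase, was 77.1, 128 and 121 in gcn5-7 arp6-1 libraries, against 257, 296 and 213 in arp6-1 libraries, lower in both fits (-1.24 ± 0.34, adjusted p = 0.0372; corrected -1.28, adjusted p = 0.0326). FLS1 did not pass without arp6-1 replicate 1 (adjusted p = 0.0964). Other calls as deposited missed the threshold after correction with fold changes that stayed sizeable, as for DIC2 (-3.03, adjusted p = 0.0269; corrected -2.42, adjusted p = 0.0601), TRY (-2.57, adjusted p = 0.0387; corrected -1.46, adjusted p = 0.0506) and NAI2 (2.31, adjusted p = 0.0167; corrected 1.34, adjusted p = 0.0573). The fold changes of GSTU19, GSTU20, PHO2, BTS and FRO3 were, corrected, -0.82, -0.83, 0.77, 0.60 and 0.37, and those of EGL3 and CER1 lay close to 0 (0.13 and -0.029).

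**Figure D3:**
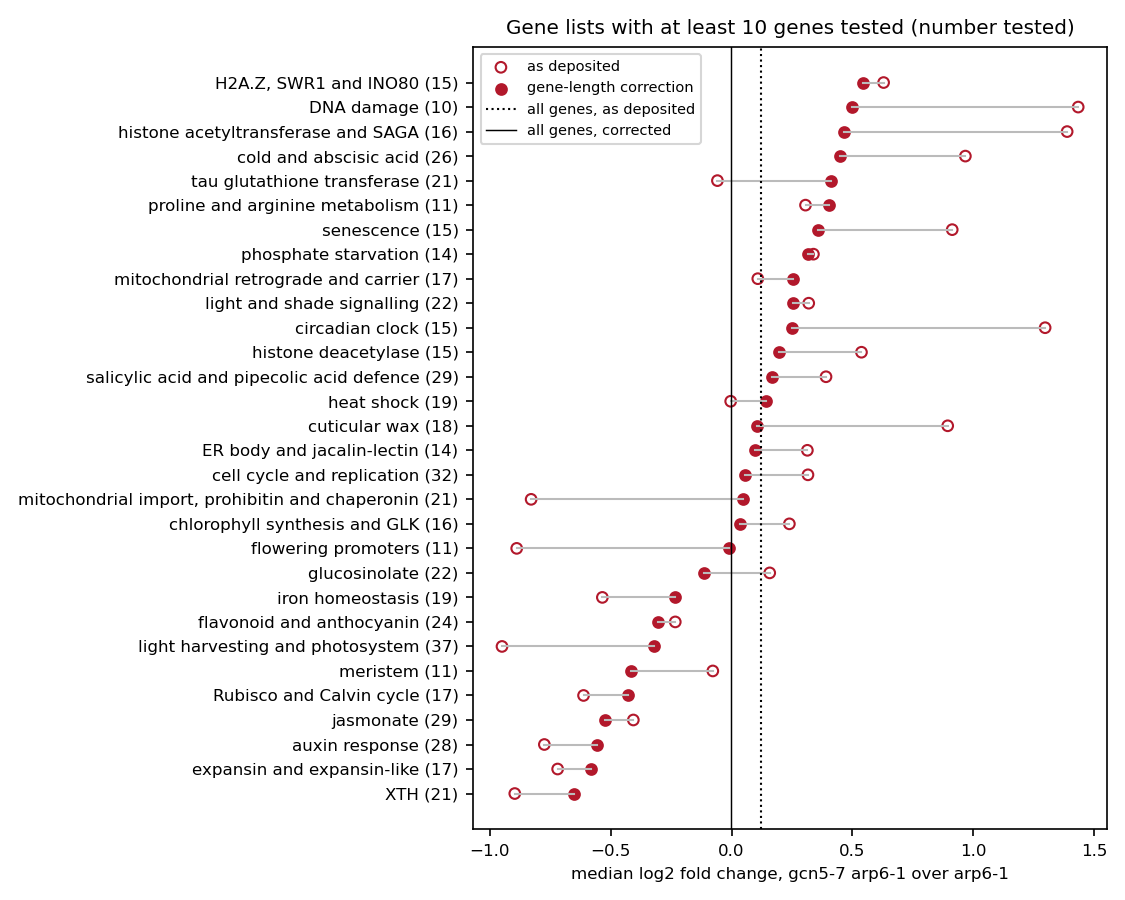
Median log2 fold change of gcn5-7 arp6-1 over arp6-1 for gene lists with at least 10 genes tested, as deposited (open circles) and after the gene-length correction (filled circles), with the median of all genes as vertical lines and the number tested in brackets. Lists at the top, such as DNA damage and histone acetyltransferase and SAGA, move toward 0 by about 0.9, and the XTH and expansin lists stay below 0 in both (with libraries set to equal sums, which moves the median of all genes to 0.80, the expansin median is 0.082).

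Genes called between gcn5-7 and Col-0 were examined next for their values without ARP6. In experiment A, 26 genes (0.142%) were called between gcn5-7 and Col-0, 13 lower and 13 higher (0.071% each). Of these, 6 of the 13 were called lower and 2 of the other 13 were called higher in gcn5-7 arp6-1 against arp6-1 (2.96% and 11.9% of all genes). EXLB1 (AT4G17030, chr4:9581562-9583290, minus strand) is the clearest case. It averaged 19.8 in gcn5-7 arp6-1, 84.3 in arp6-1, 0.0433 in gcn5-7 and 55.7 in Col-0. By library it was 23.9, 15.4 and 20.1 in gcn5-7 arp6-1 libraries, against 108, 82.6 and 61.9 in arp6-1 libraries. It was thus lower in the double mutant than in arp6-1 (-2.02 ± 0.37, adjusted p = 0.00822; corrected -1.27, adjusted p = 0.0253) but far above its level in gcn5-7, where the gene was almost off (gcn5-7 against Col-0 -5.69, adjusted p = 0.000451). SCPL11, a serine carboxypeptidase-like protein, averaged 8.17 in gcn5-7 arp6-1, 9.26 in arp6-1, 0.448 in gcn5-7 and 9.43 in Col-0, so gcn5-7 against Col-0 was -2.85 (adjusted p = 0.0104) while the double mutant did not differ detectably from arp6-1 (-0.14 ± 0.30, adjusted p = 0.718). A pair of unnamed loci, chosen after their values were seen, were high in both genotypes that carry gcn5-7. AT1G64795 was listed at 9.04, 7.37 and 12.5 in gcn5-7 arp6-1 libraries, against 0, 0 and 0.164 in arp6-1 libraries, and averaged 32.9 in gcn5-7 and 0.0775 in Col-0 (3.31 ± 0.48, adjusted p = 0.00435; corrected 4.53, adjusted p = 0.00723). AT1G75945 was 16.8, 18.21 and 14.9 in gcn5-7 arp6-1 libraries, against 4.76, 0.399 and 0.713 in arp6-1 libraries, and averaged 127 in gcn5-7 and 1.16 in Col-0 (2.88 ± 0.78, adjusted p = 0.0368; corrected 4.15, adjusted p = 0.00153). AT1G64795 lies within the gene ILA on the opposite strand over its whole 270 bases, so reads of the 2 may not be separable.

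Experiment B, whose libraries enter no other comparison here, gave a longer list of genes that respond to gcn5-7, 5118 called of 19507 tested (26.2%), 2254 higher (11.6%) and 2864 lower (14.7%). Of the 10 named genes with the highest fold changes there, 0 were called higher in gcn5-7 arp6-1 against arp6-1 as deposited, 1, ARD3, was called lower and 5 had a positive sign, with a median log2 fold change of 0.25 here and 3.10 in gcn5-7 against Col-0 of experiment A. Of the 10 lowest, 1, EXLB1, was called lower and 9 had a negative sign, with a median of -0.75 here and -2.77 in gcn5-7 against Col-0 of experiment A. NIT2, a nitrilase of indole metabolism, averaged 18.0 in gcn5-7 arp6-1, 4.45 in arp6-1, 416 in gcn5-7 and 3.46 in Col-0, where the gcn5-7 libraries ranged from 18.7 to 999. SAG13, a senescence and defence dehydrogenase, averaged 32.9 in gcn5-7 arp6-1, 51.5 in arp6-1, 548 in gcn5-7 and 43.9 in Col-0 (gcn5-7 libraries 92.5 to 897), and AIG1, a defence GTPase, averaged 17.5 in gcn5-7 arp6-1, 11.1 in arp6-1, 52.7 in gcn5-7 and 6.08 in Col-0 (gcn5-7 libraries 30.7 to 77.9). OSM34, an osmotin-like defence protein, averaged 2.82 in gcn5-7 arp6-1, 0.109 in arp6-1, 14.2 in gcn5-7 and 0.276 in Col-0 (gcn5-7 libraries 3.86 to 27.1) and was called higher after correction only (2.46, adjusted p = 0.0198, against 1.72, adjusted p = 0.0528). The gcn5-7 libraries thus varied widely, and the difference between the 2 changes was not called for any of the 4 (adjusted p = 0.265, 0.148, 0.264 and 0.307). Among the lowest, AGP41, an arabinogalactan peptide, averaged 10.9 in gcn5-7 arp6-1, 112 in arp6-1, 5.44 in gcn5-7 and 129.6 in Col-0, PPT2, a plastid phosphoenolpyruvate transporter, averaged 40.8 in gcn5-7 arp6-1, 109 in arp6-1, 8.78 in gcn5-7 and 102 in Col-0, and ARGAH2, an arginase, averaged 35.5 in gcn5-7 arp6-1, 74.6 in arp6-1, 24.2 in gcn5-7 and 128 in Col-0. Their fold changes against arp6-1 were -2.56, adjusted p = 0.0868, -1.29, adjusted p = 0.0984 and -1.25, adjusted p = 0.15, so none was called.

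Over the whole list the direction was mostly shared. Of 1052 genes called higher in gcn5-7 of experiment B by a log2 fold change of at least 1 and tested here, 78.1% had a positive sign, with a median of 1.12 here and 0.85 in gcn5-7 against Col-0 of experiment A, 333 called higher and 14 lower. Of 1272 called lower, 81.7% had a negative sign, with a median of -0.99 here and -1.04 in gcn5-7 of experiment A, 102 called lower and 19 higher. Over all genes 53.4% were positive, with a median of 0.12, and 11.9% were called higher and 2.96% lower. As deposited, the fold changes of gcn5-7 against Col-0 in experiment B also followed exon length (Spearman 0.30), so part of this sharing may go with length. When both experiments were corrected for gene length, the shares were 72.5% of 864 genes and 78.3% of 1104 genes, and the medians 0.52 and -0.70 here, with 1.1 and -1.05 in gcn5-7 of experiment A. Of those 864 genes 102 were called higher and 9 lower here, and of the 1104 genes 71 lower and 15 higher. A score per library, the mean log2 value of the first list minus that of the second, was -1.23, -1.30 and -0.99 in gcn5-7 arp6-1, against -3.82, -2.91 and -2.34 in arp6-1. It was -1.36, -0.16 and -0.47 in gcn5-7, against -3.85 and -1.69 in Col-0. The gcn5-7 arp6-1 and arp6-1 libraries did not overlap, and the difference of their means was 1.85 as deposited and 1.17 after correction. Corrected scores were -0.98, -1.18 and -0.82 in gcn5-7 arp6-1, against -2.75, -2.10 and -1.64 in arp6-1. In gcn5-7 they were -0.11, 0.68 and 0.16, above every gcn5-7 arp6-1 library, and in Col-0 -2.86 and -1.29. With genes of a log2 fold change of at least 2 only, as deposited, scores were -0.21, -0.73 and -0.23 in gcn5-7 arp6-1 and -2.90, -1.765 and -1.03 in arp6-1. They were 1.89, 2.55 and 1.74 in gcn5-7 and -3.32 and -1.15 in Col-0. The score was lowest in the first replicates of arp6-1 and Col-0, which also had the most negative correlations with exon length.

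**Figure D4:**
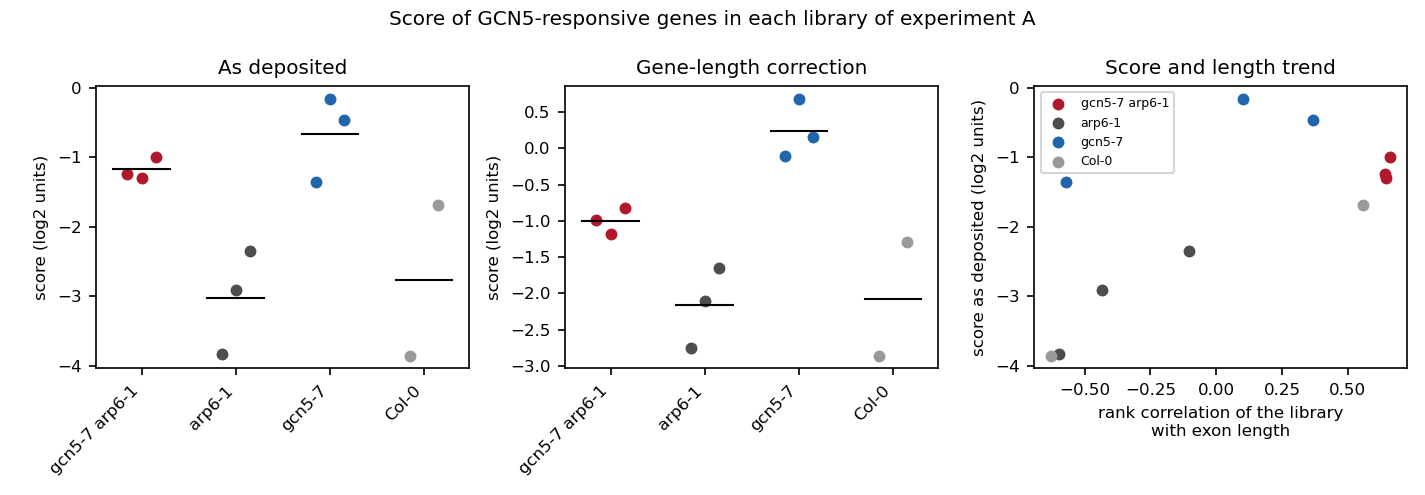
Score of GCN5-responsive genes (log2 units; mean of genes higher in gcn5-7 of experiment B minus mean of genes lower there) in each library of experiment A, as deposited (left), after the gene-length correction (middle), and, as deposited, against each library's rank correlation with exon length (right). Points are libraries and bars are group means. The 3 gcn5-7 arp6-1 libraries sit between -1.30 and -0.99 as deposited, above the 3 arp6-1 libraries, and close together in length trend.

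Whether the GCN5 mutation acts differently without ARP6 was tested as the difference between the change in gcn5-7 arp6-1 against arp6-1 and the change in gcn5-7 against Col-0, which share no library. It was called for 252 genes (1.38%), 230 above 0 (1.26%) and 22 below (0.12%). After correction it was called for 249 (1.36%), 200 above 0 (1.09%) and 49 below (0.267%). Both fits called 96 genes in the same direction, 82 above 0 and 14 below, and for 80 of these 96 the 2 changes had opposite signs, although many of the gcn5-7 changes were near 0 (HFR1 -0.10) and uncalled. ZW9, a TRAF-like protein, was higher in gcn5-7 arp6-1 than in arp6-1 but on average lower in gcn5-7 than in Col-0, at 38.8 in gcn5-7 arp6-1, 8.998 in arp6-1, 2.84 in gcn5-7 and 15.1 in Col-0 (difference 4.06 ± 0.46, adjusted p = 0.0217; corrected 3.84, adjusted p = 0.00513). FMO GS-OX2, which oxidises glucosinolate side chains, had the same pattern, at 34.3 in gcn5-7 arp6-1, 7.48 in arp6-1, 0.312 in gcn5-7 and 4.32 in Col-0 (3.88 ± 0.67, adjusted p = 0.0333; corrected 3.56, adjusted p = 0.0212). In RD29B (3.71 ± 0.56, adjusted p = 0.0263; corrected 3.23, adjusted p = 0.0364), HFR1 (3.06 ± 0.39, adjusted p = 0.0217; corrected 3.20, adjusted p = 0.00723), AGL19 (1.96 ± 0.37, adjusted p = 0.0372; corrected 2.48, adjusted p = 0.0168) and NDB4 (2.16 ± 0.36, adjusted p = 0.0306; corrected 1.76, adjusted p = 0.0447) the double mutant was higher than the other 3 genotypes on average. Each of these genes averaged below 1 in those 3 genotypes and was tested only through the double mutant. CFM3A, a chloroplast intron splicing factor (4.36 ± 0.76, adjusted p = 0.0333), ATSPS4F, a sucrose phosphate synthase (4.43 ± 0.91, adjusted p = 0.0449), and SS4 (4.38 ± 0.83, adjusted p = 0.0373) were the other genes with the highest differences among those with a symbol and a mean of at least 5, and passed in both fits. EXLB1 (3.67 ± 0.55, adjusted p = 0.0263; corrected 4.33, adjusted p = 0.00513) and SCPL11 (2.71 ± 0.45, adjusted p = 0.0282; corrected 2.48, adjusted p = 0.0181) were above 0 with the reduced or undetectable loss already described.

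Below 0, EXO had the lowest difference among genes with a symbol and a mean of at least 5 (-4.50 ± 0.56, adjusted p = 0.0217; corrected -4.16, adjusted p = 0.00882) and XTH22 followed it closely among wall genes (-3.76 ± 0.70, adjusted p = 0.0372; corrected -3.70, adjusted p = 0.0254). ARD3, an acireductone dioxygenase of methionine salvage, averaged 22.5 in gcn5-7 arp6-1, 77.6 in arp6-1, 167 in gcn5-7 and 38.7 in Col-0 (-4.11 ± 0.84, adjusted p = 0.0452; corrected -3.45, adjusted p = 0.0466). ELI3-2, an alcohol dehydrogenase of defence, averaged 1.15 in gcn5-7 arp6-1, 1.46 in arp6-1, 12.5 in gcn5-7 and 0.779 in Col-0 (-3.46 ± 0.72, adjusted p = 0.0464; corrected -3.71, adjusted p = 0.0382). BAP2, a membrane protein that restrains cell death, passed as deposited only (-3.53 ± 0.73, adjusted p = 0.0468; corrected -2.60, adjusted p = 0.146). These calls depended on the libraries. Leaving out gcn5-7 arp6-1 replicate 2 or 3 or any single arp6-1 library left 0 genes called by limma, and without gcn5-7 arp6-1 replicate 1 it left 109. Without gcn5-7 replicate 1, 2 or 3 it called 3, 0 or 459 genes, and without Col-0 replicate 1 or 2 it called 2895 or 2. With all libraries 3610 genes had an unadjusted p below 0.05.

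**Figure D5:**
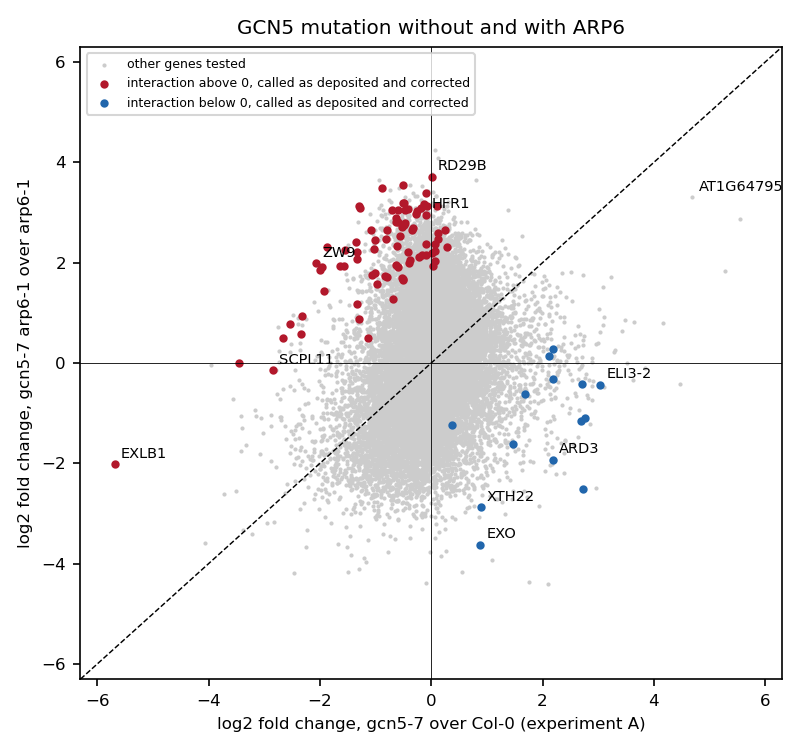
Log2 fold change of gcn5-7 arp6-1 over arp6-1 (vertical) against that of gcn5-7 over Col-0 in experiment A (horizontal) for the genes tested. Coloured points are the 96 genes whose difference was called both as deposited and after the gene-length correction, red above 0 and blue below, and the dashed line marks equal change. RD29B and HFR1 lie at about 0 on the horizontal axis, and EXLB1 at -5.69 on the horizontal and -2.02 on the vertical axis.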

How the data were processed

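Reads were trimmed with fastp 0.23.4 and aligned with HISAT2 2.2.1 to TAIR10, per the submitters' processing notes. As the authors deposited them, the values are a signal (TPM scaled by TMM, by their name); read counter, annotation and strand handling were not given in the sources used here, and replicates were not pooled. Each table lists 32833 genes, of which 32548 matched RefSeq TAIR10.1, the source of symbols, exon lengths and sequences. Exon length counts every base that lies in any annotated exon of the gene.

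Values were analysed as log2(value + 1). Genes with a mean of at least 1 in table A were fitted together over its 11 libraries with limma 3.58.1 in R 4.3.3 (trend, robust empirical Bayes, Benjamini-Hochberg adjustment), called below 0.05; table B was fitted alike. Errors are SE of fold changes and SD of means. The gene-length correction subtracts, per library, a lowess curve (span 0.3) of deviations on log2 exon length. Fits were tested on simulated data.

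Members and lists were chosen with earlier results of these data known. Genes were named by rule: ARP6, GCN5 and the FLC clade; the 10 highest and lowest fold changes among called genes with a symbol, a mean of at least 5 and no overlap; the 5 highest and lowest called differences between changes and the 10 highest and lowest of experiment B, with a symbol and that mean; and up to 3 per list. Not all of the 132 are printed. ABF3, AGL42, CRY2, INO80, RD20, RAD17, LUX, AUR2, TSO2, HTA11, YAF9B, SEF, SPCH, IRX5, PHB1, PHB2, PHB6 and 2 unnamed loci were added after their values were seen. Of 104 genes followed through all settings, 25 overlap another gene. Same-numbered replicates were not paired by the labels, and alternatives are given at the end.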

Additional observations from a re-analysis of the deposited data

Results flagged for a closer look

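The genes below stand out because the change with the GCN5 mutation differed between plants without ARP6 (gcn5-7 arp6-1 against arp6-1) and plants with it (gcn5-7 against Col-0), by the test of that difference with an adjusted p below 0.05; values are differences of log2 fold changes. Above 0 in both the deposited and the length-corrected fit were ATSPS4F (4.43), SS4 (4.38), CFM3A (4.36), ZW9 (4.06), FMO GS-OX2 (3.88), RD29B (3.71), CDF1 (3.40), HFR1 (3.06), NDB4 (2.16) and AGL19 (1.96). Above 0 as deposited but not called after correction were NET1D (3.77), ARF5 (2.77), PARP2 (2.61), PIE1 (2.58), GMI1 (2.56), HINKEL (2.38), PARP1 (2.33) and ARF19 (2.28). EXLB1 (3.67) and SCPL11 (2.71) were above 0 in both fits, with a loss in gcn5-7 that was smaller, or not detectable, in the double mutant.

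Below 0 in both fits were EXO (-4.50), ARD3 (-4.11), XTH22 (-3.76) and ELI3-2 (-3.46). BAP2 (-3.53) was below 0 as deposited only. Only genes named in the results were examined in this way, and no group of 3 libraries was searched for single outlying samples.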

How the results depend on the processing

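For gcn5-7 arp6-1 against arp6-1, 2715 genes were called. With a pseudocount of 0.1 it was 1737, with a mean of at least 5 it was 391, with quantile normalization 4662, with the gene-length correction 1364 and, in addition, without arp6-1 replicate 1, 551. With only the groups compared it was 7692 (3802 with the length correction, added after seeing the data), with array weights 15275 and with a batch term for the 3 first replicates 8470. The array weights of arp6-1 replicates 1, 2 and 3 were 0.114, 62.5 and 0.543, so that fit rests largely on 1 arp6-1 library. The batch term joined the first replicates of arp6-1, gcn5-7 and Col-0 but not that of gcn5-7 arp6-1, a grouping that no label gives. Leaving out 1 library of gcn5-7 arp6-1 or arp6-1 gave 418 to 2545. Leaving out 1 gcn5-7 library, which enters the fit only through the shared spread, gave 1714 to 4440. Scaling moved the split of calls: higher genes were 2173 of 2715 as deposited, 2734 of 4662 after quantile normalization and 2067 of 2323 with libraries set to equal sums, where the median over all genes was 0.80 (log2).

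The difference between changes was called for 252 genes. It was 15 with a pseudocount of 0.1, 523 without a filter, 2 with a mean of at least 5, 38 with equal sums, 774 with quantile normalization, 6595 with the batch term, and 0 to 2895 without 1 library. For gcn5-7 against Col-0 in experiment A, 26 genes were called, and, in the same order of settings, 61, 51, 5, 16, 49 and 1468, then 217 with the length correction, 356 with it and without arp6-1 replicate 1, 3 with array weights and 3 to 90 without 1 library. The score difference was 1.85, 1.17 with the length correction of both tables, and 1.45 to 2.19 without 1 library.

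Of the 89 genes followed that were called, 54 kept their call under the length correction, 32 lost it and 3 turned in sign. Under that correction all 3 were uncalled and lay within their standard error of 0. The turned values under length correction were -0.029 for CER1, -0.15 for MBD9 and -0.11 for HAC5, with the same values in the fit of the groups compared and with the block, and -0.14 for MBD9 and -0.020 for HAC5 also without arp6-1 replicate 1. Of uncalled genes, GCN5 turned to -0.24 under length correction (-0.052 also without arp6-1 replicate 1) and -0.091 under quantile normalization, and FLM to 0.34, SCPL11 to 0.58 and SAG13 to 0.31 with equal sums. Without 1 library SCPL11 ranged from -0.28 to 0.035 and SAG13 from -1.001 to 0.033, positive without arp6-1 replicate 2. The cause was not tested.

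The first replicates of arp6-1, gcn5-7 and Col-0 had similar rank correlations with exon length (-0.599, -0.572 and -0.626). Their column sums were also the highest of their groups (2078200, 1388400 and 1790500). In gcn5-7 arp6-1 replicate 1 that correlation was 0.642. Between gcn5-7 arp6-1 and arp6-1, same-numbered replicates did not deviate together (correlations 0.01, 0.19 and -0.03), so the replicate block is no pairing. With it 9117 genes were called (5508 with the length correction), 4533 (1989) for the difference and 120 (328) for gcn5-7 against Col-0. Depth recovered from the values limits little here, whereas 3 libraries a group with unequal length trends limit every call on a single gene.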
